A study of Mus musculus with 47 samples.

Results

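The opioid genes described here are 3 peptide precursors, Pdyn, Penk and Pnoc, and 4 receptors, Oprm1, Oprk1, Oprd1 and Oprl1. They were chosen by symbol, without Pomc, whose product also yields hormones that are not opioids, and all 7 were found by their Ensembl identifiers among the 37315 genes counted. RNA was sequenced from whole hypothalamus, hippocampus, neocortex and cerebellum of females of the inbred mouse strain C57BL/6J, with no treatment named in the labels, and each region was sampled at proestrus, estrus, metestrus and diestrus. The 47 libraries comprised 3 for each stage in each region, except for the neocortex at estrus, with 2. All proestrus mice were 91 days old and all estrus mice 90 days old, metestrus mice were 90 or 91 days old, and diestrus mice 90 or 92 days old, so that age and stage cannot be told apart for proestrus and estrus. Hippocampus libraries were made by a different protocol from those of the other regions, which used a NEBNext Ultra kit, so that region and protocol cannot be told apart in any comparison with the hippocampus.

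Opioid precursors are cut by prohormone convertases at pairs of basic residues, which frees short peptides that are released from neurons. Their receptors couple to inhibitory G proteins, which lower cyclic AMP, open inwardly rectifying potassium channels and hold back presynaptic calcium channels. Enkephalins from Penk act mainly on the delta receptor Oprd1 and the mu receptor Oprm1, dynorphins from Pdyn act mainly on the kappa receptor Oprk1, and nociceptin from Pnoc acts on Oprl1. In the hypothalamus, dynorphin is made, among other cells, by arcuate neurons that also make kisspeptin and neurokinin B and that pace the release of gonadotropin-releasing hormone, which gives these genes an interest across the estrous cycle.

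The precursors differ in how many opioid cores their coding sequence holds, which is shown because a single count of a precursor's RNA stands for a different set of peptides in each. The transcripts of GENCODE M21 held 6 copies of the Met-enkephalin core and 1 of the Leu-enkephalin core in Penk, 3 Leu-enkephalin cores in Pdyn (the starts of alpha-neoendorphin, dynorphin A and dynorphin B), and 1 nociceptin start in Pnoc. In the sequences, written 5′ to 3′ in the sense of the transcript, capitals mark the 5 codons of the core, and lower case the 2 codons on each side.
Penk copy 1, Met-enkephalin: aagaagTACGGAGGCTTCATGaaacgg
Penk copy 6, Leu-enkephalin: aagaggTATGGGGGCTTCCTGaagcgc
Penk copy 7, Met-enkephalin: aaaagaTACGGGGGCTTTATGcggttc
Pdyn copy 1, start of alpha-neoendorphin: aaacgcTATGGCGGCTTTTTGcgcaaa
Pdyn copy 2, start of dynorphin A: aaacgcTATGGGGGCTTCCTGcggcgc
Pdyn copy 3, start of dynorphin B: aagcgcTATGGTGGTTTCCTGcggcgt
Pnoc, start of nociceptin: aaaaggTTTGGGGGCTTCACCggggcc
The Penk copies printed lie at chr4:4134328-4134354, chr4:4133935-4133961 and chr4:4133842-4133868, those of Pdyn at chr2:129688232-129688258, chr2:129688124-129688150 and chr2:129688067-129688093, and that of Pnoc at chr14:65404872-65404898, all in coding exons on the minus strand of GRCm38. The cores printed begin at codons 100, 231 and 262 of the 268 codons of Penk, at codons 166, 202 and 221 of the 248 of Pdyn, and at codon 141 of the 212 of Pnoc.

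On GRCm38, Penk (ENSMUSG00000045573) lies at chr4:4133531-4138819 and Pnoc (ENSMUSG00000045731) at chr14:65400673-65425472, both on the minus strand. Pdyn (ENSMUSG00000027400) lies at chr2:129686565-129699844 on the minus strand, and Oprl1 (ENSMUSG00000027584) at chr2:181715016-181720985 on the plus strand. Oprm1 (ENSMUSG00000000766) lies at chr10:6758506-7038198 and Oprk1 (ENSMUSG00000025905) at chr1:5588466-5606131, both on the plus strand, and Oprd1 (ENSMUSG00000050511) at chr4:132110726-132144486 on the minus strand. Exons of Penk share 233 bases with A830012C17Rik, a noncoding gene on the opposite strand, and exons of Oprm1 share 96 bases with Ipcef1, also on the opposite strand. Since the sources used here do not say whether counting used strand, reads from these shared bases cannot be told apart. A830012C17Rik itself was low, with means from 0.4997 CPM (gene counts per 1000000 counts in a library) in the hippocampus to 2.03 CPM in the cerebellum, whereas Ipcef1 had mean levels from 13.2 CPM in the hypothalamus to 141.7 CPM in the neocortex.

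The hypothalamus was the shallowest region, with 1826368 to 8264980 counts per library, followed by the cerebellum with 2558644 to 7996961, the neocortex with 6311867 to 10535466 and the hippocampus with 7672217 to 15680876. Marker genes followed the labelled tissue. Of the hypothalamic markers (such as Pmch and Avp) 8 of 8 were called higher in the hypothalamus than in each other region. Over all genes, 7.22% (against hippocampus), 10.8% (neocortex) and 13.4% (cerebellum) were called higher there. Of these 8 markers, 1 (hippocampus), 0 (neocortex) and 1 (cerebellum) passed the low-count filter elsewhere, so most of these differences are a description with no test. Of the cerebellar markers 6 of 6 were called higher in the cerebellum than in each other region, and 5 of 6 passed that filter in each of those regions. Of the hippocampal markers 6 of 6 were called higher there than in the neocortex, and 5 of 6 higher than in the hypothalamus and than in the cerebellum. Of the neocortical markers 6 of 6 were called higher there than in the cerebellum, 5 of 6 higher than in the hippocampus and 4 of 6 higher than in the hypothalamus. The filter was passed by 3 of 6 hippocampal markers in the hypothalamus, 2 in the neocortex and 3 in the cerebellum. It was passed by 5 of 6 neocortical markers in the hypothalamus, 5 in the hippocampus and 2 in the cerebellum. Differences of markers that did not pass are likewise a description with no test. One hypothalamus library stood apart, Estrus 3, which had the fewest counts, held 13.5% of them in the single gene Lars2 and was the lowest of the 12 libraries for 60.7% of 16390 genes. It was also the lowest for 6 of the opioid genes and the highest for Penk. Scaled by TMM factors, which correct for library composition, its Pdyn (48.2 CPM), Oprm1 (10.6 CPM) and Oprl1 (91.6 CPM) lay within the range of the other hypothalamus libraries. On that scale its Pnoc (6.54 CPM), Oprk1 (19.6 CPM) and Oprd1 (3.27 CPM) were still the lowest. Its Penk was then 135.7 CPM, against at most 73.8 CPM in the other hypothalamus libraries. Lars2 also held 10.6% of counts in Metestrus 3, 8.62% in Metestrus 2 and 8.18% in Proestrus 2, and at most 4.86% in the other hypothalamus libraries. In whole tissue, fewer cells of a type and less RNA per cell cannot be told apart. The labels describe RNA taken from each animal and do not say which libraries of different regions share one, and p-values measure the spread between these libraries.

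The precursor Penk, source of the enkephalins, was highest in the cerebellum. In the 12 cerebellum libraries its level lay between 71.9 and 84.8 CPM, with a median of 78.9 CPM and a mean of 78.3 ± 3.78 CPM (SD, n = 12). In the hypothalamus it lay between 39.3 and 90.9 CPM, with a median of 55.1 CPM and a mean of 57.7 ± 16.2 CPM (SD, n = 12). The cerebellar libraries were close together, whereas 2 hypothalamus libraries, Estrus 3 (90.9 CPM) and Metestrus 1 (84.2 CPM), reached or passed the cerebellar range and the other 10 lay below it. In the neocortex the level was 26.3 to 49.8 CPM (median 32.2, mean 34.0 ± 6.55 CPM, SD, n = 11), and in the hippocampus 13.7 to 23.6 CPM (median 17.2, mean 17.9 ± 2.70 CPM, SD, n = 12). The hippocampus was the only region whose libraries lay below all libraries of every other region for Penk.

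Regions were compared in a single edgeR quasi-likelihood fit of all 47 libraries, with stage as a covariate, and a gene was called when its difference exceeded 2-fold by edgeR's glmTreat at an adjusted p of 0.05 over 18152 genes. Penk was 4.16-fold higher in the cerebellum than in the hippocampus (edgeR glmTreat, adjusted p = 3.05e-13) and 3.17-fold higher in the hypothalamus than in the hippocampus (adjusted p = 2.97e-07). Its cerebellar level was 2.03 times that of the neocortex, which did not exceed 2-fold by glmTreat (adjusted p = 0.829). The hypothalamus and the cerebellum differed by 1.31-fold, with the cerebellum higher (95% interval of the log2 difference by limma voom, -0.65 to -0.27), a difference from zero (edgeR adjusted p = 0.00109) but not above 2-fold. The hypothalamus and the neocortex differed by 1.55-fold (interval 0.38 to 0.78 on the log2 scale), also within 2-fold.

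Pdyn, the dynorphin precursor, was highest in the hypothalamus and close to absent from the cerebellum. Its level in the hypothalamus was 32.3 to 67.6 CPM (median 52.9, mean 51.6 ± 10.6 CPM, SD, n = 12). In the neocortex it was 17.1 to 21.5 CPM (median 20.1, mean 19.9 ± 1.32 CPM, SD, n = 11), and in the hippocampus 8.35 to 13.0 CPM (median 10.2, mean 10.7 ± 1.57 CPM, SD, n = 12). No library of one of these regions reached the range of another. In the cerebellum Pdyn had 32 counts over 12 libraries and 0 counts in 4 of them, each of which allows a level of up to 0.583 to 1.17 CPM for a floor of 3 counts.

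Hypothalamic Pdyn was 4.73-fold higher than in the hippocampus (edgeR glmTreat, adjusted p = 2.31e-18) and 2.36-fold higher than in the neocortex (adjusted p = 0.00617). The neocortex was 2-fold above the hippocampus, at the boundary of the test and not called (adjusted p = 1). Pdyn did not pass the low-count filter within the cerebellum and entered the fit through the other regions, so its differences from the cerebellum are a description with no test. The fitted values were 104.7-fold for the hypothalamus, 44.3-fold for the neocortex and 22.1-fold for the hippocampus. They rest on few counts, since 18 of the 32 cerebellar Pdyn counts came from Estrus 2, Metestrus 1 and Metestrus 2, where the thalamic marker Tcf7l2 was at 21.2, 37.0 and 38.6 CPM and in the other 9 cerebellum libraries at 4.47 to 10.2 CPM. Without these 3 libraries the folds were 172.3, 73.3 and 36.5, and the part of tissue from outside the cerebellum in these counts was not tested. Tcf7l2 was 1 of 6 thalamic markers listed, whose summed level was higher in the cerebellum (286.1 to 373.3 CPM) than in the other regions (at most 172.6 CPM). The levels of the other thalamic markers in these 3 libraries are not given here.

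Pnoc, the nociceptin precursor, was the lowest of the precursors in the forebrain regions, and none of its differences between them exceeded 2-fold by glmTreat. Its level was 4.38 to 14.8 CPM in the hypothalamus (median 10.9, mean 10.2 ± 2.85 CPM, SD, n = 12) and 3.38 to 9.78 CPM in the hippocampus (median 5.89, mean 6.17 ± 1.51 CPM, SD, n = 12). In the neocortex it was 3.42 to 6.08 CPM (median 4.65, mean 4.77 ± 0.917 CPM, SD, n = 11), and in the cerebellum 0.471 to 3.11 CPM (median 1.73, mean 1.88 ± 0.755 CPM, SD, n = 12). The forebrain regions overlapped with each other, and the cerebellum lay below them all. Pnoc in the hypothalamus was 5.53-fold above the cerebellum (edgeR glmTreat, adjusted p = 9.98e-12), in the hippocampus 3.38-fold (adjusted p = 1.45e-05) and in the neocortex 2.82-fold (adjusted p = 0.00409, and 0.143 without replicate 1 of every group). Between hypothalamus and hippocampus the log2 difference was 0.71 (95% interval 0.50 to 0.98), and between hippocampus and neocortex it was 0.26 (-0.02 to 0.49), the pair for which no difference from zero was called (edgeR adjusted p = 0.0689).

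**Figure D1:**
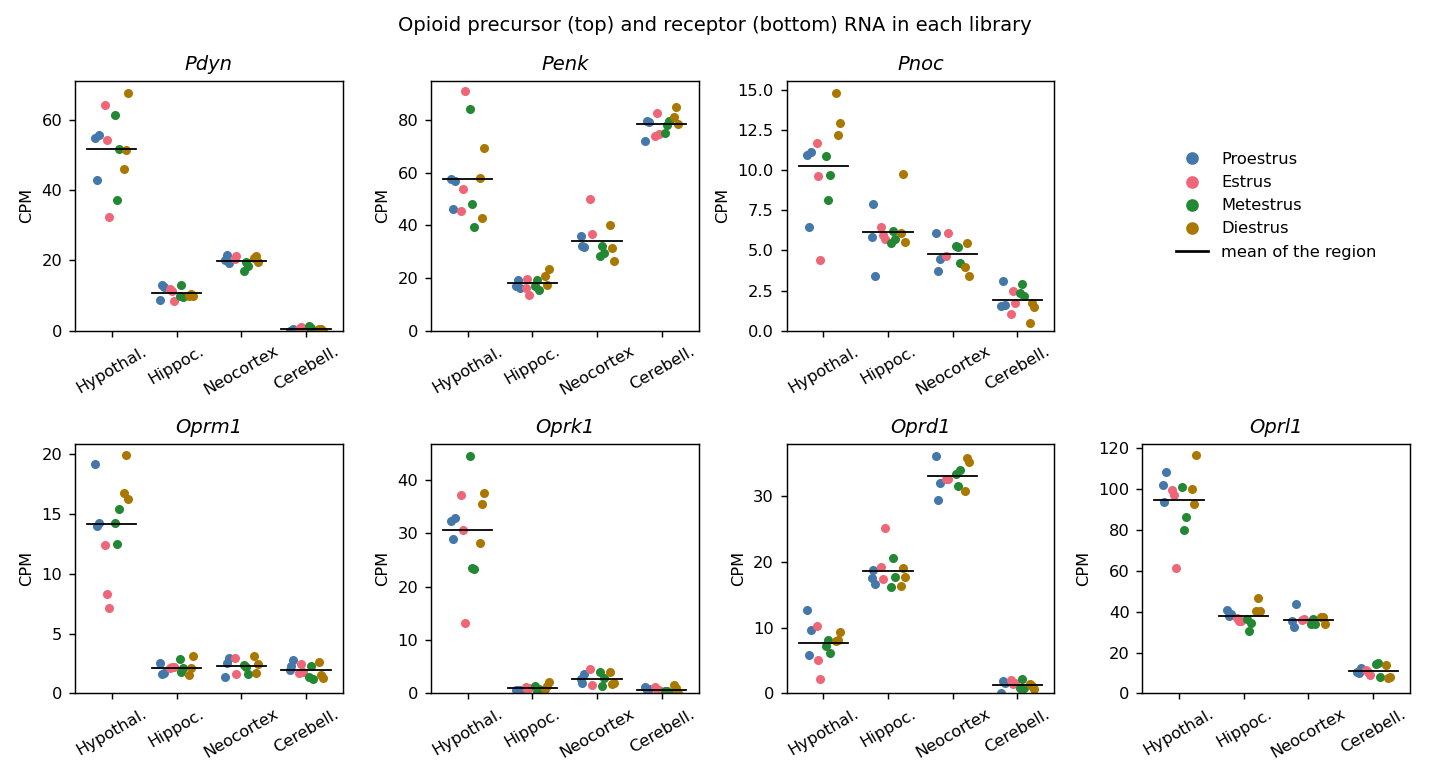
Level of each opioid gene in CPM (vertical axis) in every library of each region (horizontal axis), coloured by stage, with the region mean as a line. Penk is highest in the cerebellum (mean 78.3 CPM), Oprd1 in the neocortex (33.1 CPM) and the other genes in the hypothalamus.

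Oprl1, the receptor that binds nociceptin, was highest in the hypothalamus. Its level there was 61.3 to 116.7 CPM (median 98.3, mean 94.9 ± 14.2 CPM, SD, n = 12). It was 30.4 to 46.9 CPM in the hippocampus (median 37.3, mean 37.9 ± 4.10 CPM, SD, n = 12), 32.5 to 43.9 CPM in the neocortex (median 36.1, mean 36.2 ± 3.04 CPM, SD, n = 11) and 7.38 to 14.9 CPM in the cerebellum (median 10.6, mean 10.9 ± 2.63 CPM, SD, n = 12). Every hypothalamus library lay above the range of the other regions and every cerebellum library below it, whereas hippocampus and neocortex overlapped. Hypothalamic Oprl1 was 2.47-fold above the hippocampus (edgeR glmTreat, adjusted p = 2.30e-05), 2.41-fold above the neocortex (adjusted p = 0.000191) and 8.97-fold above the cerebellum (adjusted p = 2.24e-30). It was 3.64-fold higher in the hippocampus (adjusted p = 1.55e-14) and 3.72-fold higher in the neocortex (adjusted p = 1.07e-14) than in the cerebellum. The hippocampus and the neocortex differed by -0.03 on the log2 scale, with a 95% interval of -0.16 to 0.09. The 2 cerebellum libraries with the most Oprl1, Metestrus 1 (14.5 CPM) and Metestrus 2 (14.9 CPM), were among those high in Tcf7l2, but Diestrus 1, with 14.1 CPM of Oprl1, was not.

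Oprk1, the kappa receptor for dynorphin, was concentrated in the hypothalamus. Its level was 13.1 to 44.6 CPM there (median 31.5, mean 30.7 ± 8.17 CPM, SD, n = 12), against 1.43 to 4.65 CPM in the neocortex (median 2.66, mean 2.77 ± 1.15 CPM, SD, n = 11). The hippocampus held 0.333 to 2.08 CPM (median 0.856, mean 0.982 ± 0.470 CPM, SD, n = 12), and the cerebellum 0 to 1.65 CPM, with 44 counts in all and 0 counts in 2 libraries. The lowest hypothalamus library, Estrus 3, was still far above every library of the other regions. Hypothalamic Oprk1 was 31.0-fold above the hippocampus (edgeR glmTreat, adjusted p = 9.24e-26) and 10.05-fold above the neocortex (adjusted p = 2.84e-18). Oprk1 did not pass the low-count filter within the cerebellum, and its fitted folds over it, 45.9 for the hypothalamus and 4.57 for the neocortex, are a description with no test. The neocortex was 3.08-fold above the hippocampus (adjusted p = 0.0116), a call that did not hold by DESeq2 (adjusted p = 0.0788), by limma voom with treat (0.104) or without replicate 1 of every group (0.524). Between hippocampus and cerebellum, both low, the fitted log2 difference was 0.57.

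Oprm1, the mu receptor and main target of morphine, was also highest in the hypothalamus, at 7.12 to 19.95 CPM (median 14.3, mean 14.2 ± 3.83 CPM, SD, n = 12). It was 1.52 to 3.12 CPM in the hippocampus (mean 2.16 ± 0.492 CPM, SD, n = 12), 1.33 to 3.11 CPM in the neocortex (mean 2.27 ± 0.616 CPM, SD, n = 11) and 1.17 to 2.78 CPM in the cerebellum (mean 1.94 ± 0.552 CPM, SD, n = 12). The other regions shared one range, and the hypothalamus did not overlap with it. The hypothalamus was 6.32-fold above the hippocampus (edgeR glmTreat, adjusted p = 1.10e-16), 5.69-fold above the neocortex (adjusted p = 2.06e-14) and 7.40-fold above the cerebellum (adjusted p = 1.47e-16). Among the other regions the 95% intervals of the log2 difference were -0.44 to 0.18 for hippocampus minus neocortex, -0.13 to 0.56 for hippocampus minus cerebellum and -0.02 to 0.70 for neocortex minus cerebellum, which leaves room for no difference in each pair.

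Oprd1, the delta receptor for enkephalins, had a different order, with the neocortex highest. Its level there was 29.4 to 36.2 CPM (median 32.7, mean 33.1 ± 2.15 CPM, SD, n = 11), and in the hippocampus 16.2 to 25.3 CPM (median 17.8, mean 18.6 ± 2.48 CPM, SD, n = 12). The hypothalamus followed with 2.19 to 12.7 CPM (median 8.06, mean 7.72 ± 2.73 CPM, SD, n = 12) and the cerebellum with 0 to 2.13 CPM (median 1.43, mean 1.29 ± 0.641 CPM, SD, n = 12), where 1 library had 0 counts. The ranges of the regions did not overlap, though the lowest hypothalamus library, Estrus 3 at 2.19 CPM, came close to the highest cerebellum library. Oprd1 was 4.58-fold higher in the neocortex than in the hypothalamus (edgeR glmTreat, adjusted p = 1.51e-15) and 1.91-fold higher than in the hippocampus, which did not exceed 2-fold (adjusted p = 1). The hippocampus was 2.39-fold above the hypothalamus (adjusted p = 0.0132). Oprd1 did not pass the low-count filter within the cerebellum, and the fitted folds over it, 26.9 for the neocortex, 14.1 for the hippocampus and 5.88 for the hypothalamus, are a description with no test. The call between hippocampus and hypothalamus did not hold by DESeq2 (adjusted p = 0.174), without replicate 2 of every group (0.160) or without replicate 3 (0.102).

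Counted over the set, hypothalamus against hippocampus called 6 of 7 opioid genes (5 higher and Oprd1 lower in the hypothalamus), beside 16% of all 18152 genes (7.22% higher and 8.83% lower). Hypothalamus against neocortex called 5 of 7 (4 higher and Oprd1 lower), beside 17.7% of all genes (10.8% higher, 6.89% lower). Hippocampus against neocortex called 1 of 7, Oprk1, lower in the hippocampus, beside 9.27% of all genes (6.85% higher, 2.42% lower). Comparisons with the cerebellum were counted over the 4 genes that passed the low-count filter there, Penk, Pnoc, Oprm1 and Oprl1. Of these, 3 were called higher in the hypothalamus and 0 lower, beside 19.9% of all genes (13.4% higher, 6.56% lower). Against the hippocampus 3 were called, Pnoc and Oprl1 higher and Penk lower in the hippocampus, beside 20.5% (14.2% higher, 6.36% lower), and against the neocortex 2 were called, Pnoc and Oprl1, both higher in the neocortex, beside 17.2% (10.2% higher, 7.02% lower). The shares over all genes include genes that are near 0 in one region. The median log2 difference of all genes lay between -0.01 and 0.04 in every pair.

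**Figure D2:**
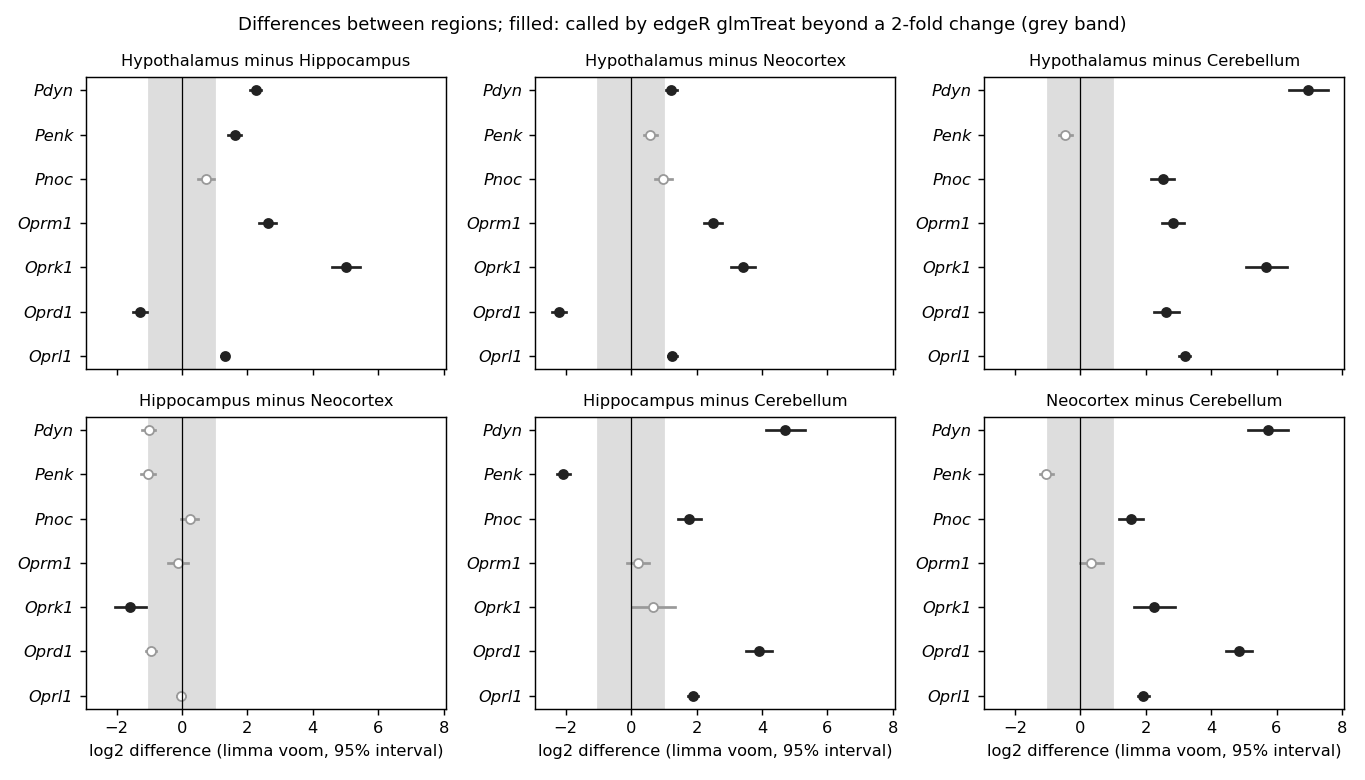
Log2 difference of each opioid gene between each pair of regions (horizontal axis), with its 95% interval from limma voom, where filled points were called above 2-fold by edgeR's glmTreat and the grey band marks differences within 2-fold. Filled points of Pdyn, Oprk1 and Oprd1 against the cerebellum, where they were near 0, are a description, and the intervals of Oprm1 and Oprl1 between hippocampus and neocortex lie across 0.

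The order of the regions held over the cycle. For Pdyn, Penk, Pnoc and Oprd1, the 4 stages gave a single order of regions by mean CPM. Oprk1 and Oprl1 had 2 orders and Oprm1 had 3, which differed in the places of regions whose levels overlapped. At every stage the hypothalamus was highest for Pdyn, Pnoc, Oprm1, Oprk1 and Oprl1, the cerebellum for Penk and the neocortex for Oprd1.

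Levels of different genes were compared per length, as RPKM (CPM per 1000 exon bases). On this scale Penk was the highest and Oprl1 the second highest of the 7 in all 4 regions. Penk reached 47.9 RPKM in the cerebellum, 35.3 in the hypothalamus, 20.8 in the neocortex and 11 in the hippocampus, and Oprl1 had 2.91, 25.3, 9.63 and 10.1 RPKM in the same order. In the hypothalamus Penk stood above 95.5% of detected genes and Oprl1 above 93.2%. Pdyn followed in the hypothalamus with 17.9 RPKM, then Pnoc with 4.75, Oprk1 with 3.35, Oprd1 with 1.92 and Oprm1 with 1.77 RPKM. The order below Pdyn depends on the length used. With the length of the longest transcript, Oprk1 came 4th (6.56 RPKM), Oprm1, whose 31 annotated transcripts span 8037 exon bases together, 5th (5.87 RPKM), Pnoc 6th (4.75 RPKM) and Oprd1 7th (1.92 RPKM), while Penk, Oprl1 and Pdyn kept their places.

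Within the precursors, Penk made up 97.9 ± 0.81% of the summed RPKM in the cerebellum, 69.2 ± 3.18% in the neocortex, 62.5 ± 3.89% in the hippocampus and 60.3 ± 8.03% in the hypothalamus (SD over libraries). Pdyn held 31.4 ± 6.24% in the hypothalamus, 23.3 ± 2.58% in the neocortex, 21.2 ± 2.85% in the hippocampus and 0.322 ± 0.310% in the cerebellum. Of the 3 precursors, the cerebellum thus held almost none but Penk. Within the receptors, Oprl1 held 82.1 ± 4.77% in the cerebellum, 78.5 ± 2.95% in the hypothalamus, 66.8 ± 3.94% in the hippocampus and 52.2 ± 2.41% in the neocortex. Oprd1 took most of the rest in the neocortex (44.6%) and the hippocampus (30.7%), and Oprk1 was the second receptor in the hypothalamus (10.2%). These shares use the length of all exons and would change with the length of the longest transcript. On that length Oprm1 (0.800 RPKM) stood above Oprd1 (0.321 RPKM) in the cerebellum, and Oprl1 stayed the highest receptor in every region. The cerebellum thus had the highest Penk and the lowest levels of Oprd1, which did not pass the low-count filter there. Its Oprm1 was also low (mean 1.94 CPM), but in one range with the hippocampus (2.16 CPM) and the neocortex (2.27 CPM). Enkephalins act mainly on Oprd1 and Oprm1.

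**Figure D3:**
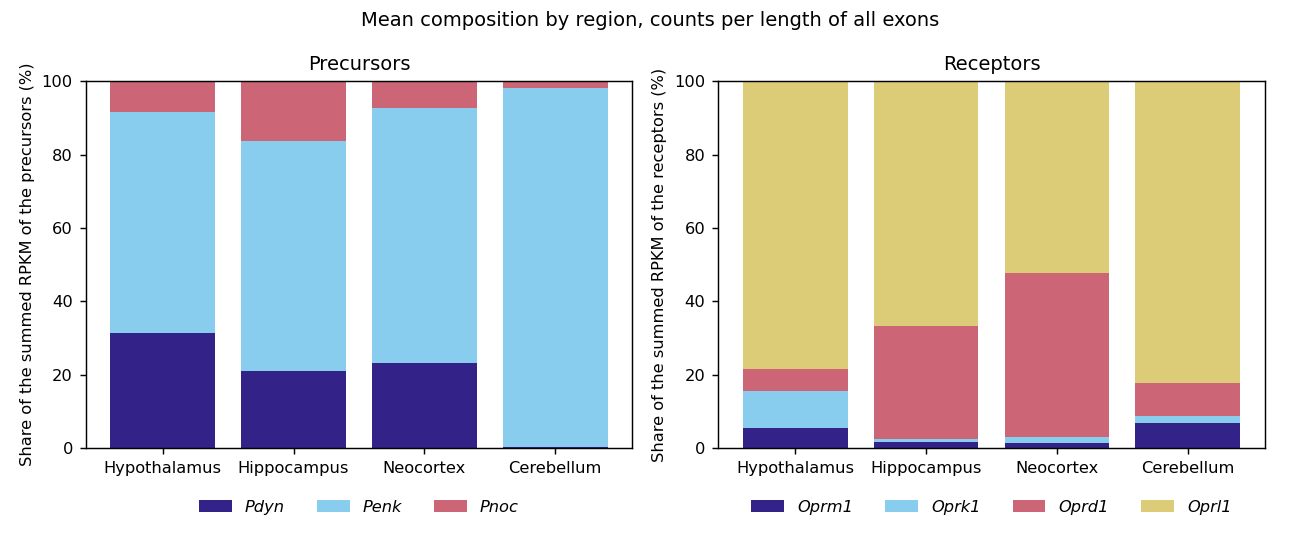
Share of each gene in the summed RPKM of the 3 precursors and of the 4 receptors (vertical axis, percent) in each region (mean over libraries, per length of all exons). Penk fills 97.9% of the cerebellar precursor bar, and Oprl1 is the largest receptor share in every region, from 52.2% in the neocortex to 82.1% in the cerebellum.

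Regional profiles were also compared between the genes over the 16 means by region and stage, which share regions and libraries, as a description. Oprl1 followed Pnoc, its ligand's precursor (Pearson's r = 0.966 over 16 means), and Pdyn (r = 0.959). Oprk1 followed Oprm1 (r = 0.952). Penk and Oprd1 ran against each other (r = -0.780), and Penk and Pdyn had r = -0.403.

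Stages were compared within each region with edgeR's quasi-likelihood test, adjusted over all genes of the region (15230 hypothalamic, 17079 hippocampal, 15926 neocortical and 14877 cerebellar genes). All 7 opioid genes were tested in the forebrain regions and 4 in the cerebellum, where Pdyn, Oprk1 and Oprd1 were too low. In the stage test 0 of these 25 results were called by edgeR, by limma voom with sample weights or by DESeq2, and edgeR called 0% of all genes in every region. At an unadjusted p under 0.05 there were 2, Oprl1 in the hippocampus and Penk in the neocortex, beside 1.48% of hippocampal and 5.62% of neocortical genes, and 0 in the hypothalamus (1.56% of genes) and the cerebellum (1.72%). Of 150 pairwise differences between stages, 0 were called by any of the 3 tools. Over all genes, edgeR called 0 pairwise differences in every region, DESeq2 called 45 in the neocortex and 3 in the hippocampus, and limma voom with sample weights 7 in the hippocampus and 1 in the hypothalamus. Of the opioid differences, 12 had an unadjusted p under 0.05 by edgeR, of which 4 were hypothalamic, 5 hippocampal, 3 neocortical and 0 cerebellar. Over the 6 pairs of stages, that mark was passed by 1.13 to 3.78% of hypothalamic genes, 0.931 to 3.11% of hippocampal genes, 2.29 to 11.8% of neocortical genes and 1.83 to 2.79% of cerebellar genes.

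The hypothalamic mu receptor Oprm1 accounted for 3 of the 4 in the hypothalamus. At estrus its level was 12.4, 8.32 and 7.12 CPM, from 34, 31 and 13 counts. At diestrus it was 16.8, 19.95 and 16.3 CPM, at metestrus 14.3, 12.5 and 15.4 CPM, and at proestrus 19.2, 14 and 14.3 CPM. Estrus was the low stage, with each of its libraries below each library of the other stages, though Estrus 1 was only just below Metestrus 2. On the TMM-scaled level, which corrects for the composition of the library, the estrus values were 12.0, 7.70 and 10.6 CPM and the lowest of the other stages were 12.1 and 12.5 CPM, so that the gap narrowed.

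Mean hypothalamic Oprm1 was 17.7 CPM at diestrus and 9.28 CPM at estrus, a ratio of 1.91. The log2 difference was 0.70 (95% interval by limma voom 0.16 to 1.24, edgeR unadjusted p = 0.00949, adjusted p = 1), beside 3.49% of genes with an unadjusted p under 0.05 in that contrast and 11.6% whose diestrus libraries all lay above the estrus libraries. For estrus minus proestrus it was -0.58 (unadjusted p = 0.0269, beside 3.78% of genes, and 4.92% without overlap in the same direction), and for metestrus minus estrus 0.55 (unadjusted p = 0.0390, beside 2.92%, and 1.22% without overlap). Its stage test gave an unadjusted p of 0.0564, which ranged from 0.0321 to 0.402 when 1 library was left out, the highest without Estrus 2. Without the shallow library Estrus 3 it was 0.0805.

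The other hypothalamic difference at that mark was Pnoc, at 14.8, 12.2 and 12.9 CPM in diestrus and 11, 6.48 and 11.1 CPM in proestrus. The diestrus libraries lay above the proestrus ones, with a log2 difference of 0.42 (edgeR unadjusted p = 0.0449, adjusted p = 1, beside 1.24% of genes, and 3.03% without overlap in that direction). Pdyn, the precursor made in arcuate kisspeptin neurons, had stage means between 50.1 CPM at metestrus and 55.0 CPM at diestrus in the hypothalamus, with libraries from 32.3 to 67.6 CPM that overlapped between all stages. Tac2 and Tacr3, the neurokinin B precursor and receptor of the same arcuate neurons, were both called higher in the hypothalamus (means of 12.4 and 10.6 CPM) than in the hippocampus and the neocortex and neither was called in the hypothalamic stage test. Kiss1 was not analysed here.

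In the hippocampus, Oprl1 was 40.5, 46.9 and 40.5 CPM at diestrus and 36.5, 30.4 and 34.4 CPM at metestrus. It was 36.8, 35.6 and 35.6 CPM at estrus and 40.7, 37.8 and 38.8 CPM at proestrus. Diestrus lay above metestrus and estrus without overlap, and the highest proestrus library lay within the diestrus range. The log2 difference of diestrus minus metestrus was 0.36 (95% interval 0.14 to 0.58, edgeR unadjusted p = 0.00292, adjusted p = 1, beside 1.86% of genes, and 1.67% without overlap in that direction), and of diestrus minus estrus 0.28 (unadjusted p = 0.0128, beside 3.11%, and 2.04% without overlap). Metestrus minus proestrus was -0.23 (unadjusted p = 0.0351, beside 1.21%, and 1.86% without overlap). Its stage test had an unadjusted p of 0.0129 and from 0.00550 to 0.0514 with 1 library left out.

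Hippocampal Oprk1 was 0.912, 1.43 and 2.08 CPM at diestrus and 0.582, 0.655 and 0.718 CPM at proestrus, low levels that did not overlap. The log2 difference was 1.18 with a wide 95% interval of 0.08 to 2.07 (edgeR unadjusted p = 0.0256, adjusted p = 1, beside 2.62% of genes, and 2.66% without overlap). Hippocampal Penk was 20.9, 17.5 and 23.6 CPM at diestrus and 16.2, 19.7 and 13.7 CPM at estrus, overlapping groups with a log2 difference of 0.36 (unadjusted p = 0.0466).

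Neocortical Penk was 49.8 and 36.7 CPM in the 2 estrus libraries and 28.2, 32.3 and 29.4 CPM at metestrus. It was 40.0, 31.3 and 26.3 CPM at diestrus and 35.8, 32.2 and 31.8 CPM at proestrus. Estrus lay above metestrus and proestrus, and Diestrus 1 lay within the estrus range. The log2 difference of metestrus minus estrus was -0.51 (95% interval -0.81 to -0.19, edgeR unadjusted p = 0.00218, adjusted p = 0.626, beside 6.97% of genes, and 16% without overlap in that direction), that of diestrus minus estrus -0.41 (unadjusted p = 0.0104, adjusted p = 0.283, beside 11.8%) and that of estrus minus proestrus 0.36 (unadjusted p = 0.0190, beside 8.36%, and 14.5% without overlap). The stage test gave an unadjusted p of 0.0132 (adjusted p = 0.785), which was 0.402 without Estrus 1 and 0.00147 without Estrus 2. Each of these fits leaves 1 estrus library, which is assumed to vary like the libraries of the other stages. With no filter on low counts Penk was called there (edgeR adjusted p = 0.00179), along with 169 genes in all, and over the alternatives to the stage test its adjusted p ran from 0.00179 to 1.

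**Figure D4:**
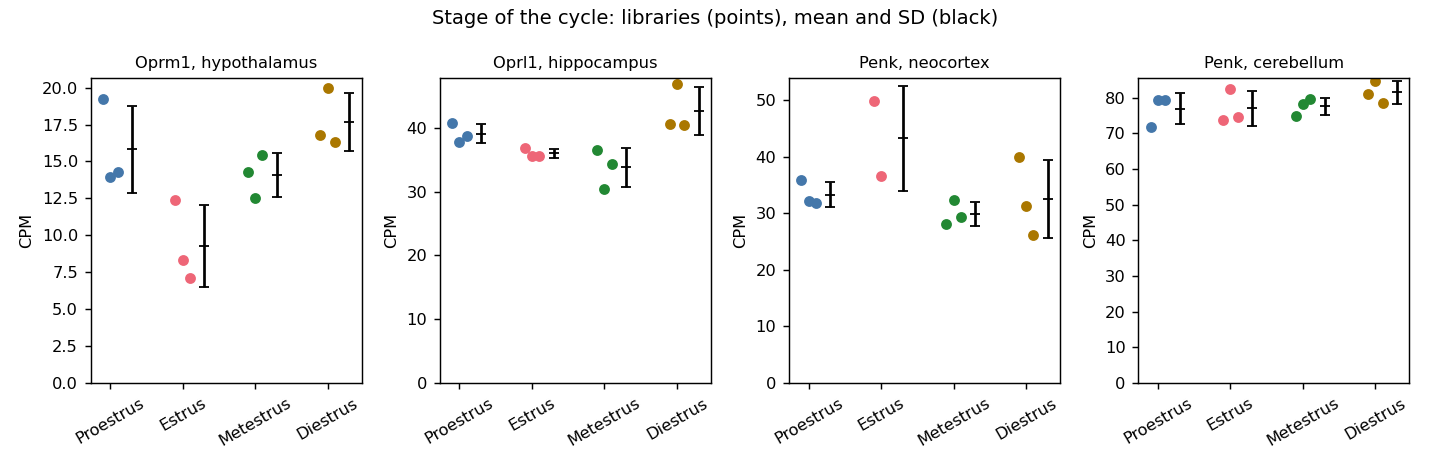
Level in CPM (vertical axis) by stage of the estrous cycle (horizontal axis) for Oprm1 in the hypothalamus, Oprl1 in the hippocampus, and Penk in the neocortex and in the cerebellum, with points for libraries and the mean and SD of each stage. Hypothalamic Oprm1 is lowest at estrus (mean 9.28 CPM), and cerebellar Penk stays between 71.9 and 84.8 CPM at all stages.

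In the hypothalamus and the neocortex, 3 of the libraries highest in Penk were also the highest in genes of striatal neurons, which make enkephalin. The summed level of 12 striatal markers was 327.6 to 565.6 CPM in the hypothalamus (median 438.8), highest in Estrus 3 (565.6) and Metestrus 1 (531.5), the libraries with the most Penk. In the neocortex it was 350.6 to 519.3 CPM, highest in Estrus 1 (519.3, the others at most 419.4), again the library with the most Penk. Adora2a, the adenosine receptor of enkephalin-making striatal neurons, was 11.5 CPM in hypothalamus Estrus 3, 5.27 CPM in Metestrus 1 and 0 to 2.18 CPM in the other 10, and 8.54 CPM in neocortex Estrus 1 and 1.10 to 2.35 CPM in the other 10. Drd1, a dopamine receptor of other striatal neurons, was 18.1 CPM in hypothalamus Estrus 3 and 12.3 CPM in neocortex Estrus 1. Drd2 was also highest in these libraries, at 7.12 CPM (hypothalamic median 5.13) and 1.61 CPM (neocortical median 0.214), and was at 0 in 4 neocortex libraries. Other libraries with much Penk had little Adora2a, with 0.994 CPM in hypothalamus Diestrus 3 (Penk at 69.4 CPM) and 2.26 CPM in neocortex Diestrus 1 (Penk at 40 CPM). In the cerebellum, where Penk was highest, the summed striatal markers were lowest of the regions, at 244.3 to 326 CPM. The part of striatal tissue in these Penk levels was not tested.

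**Figure D5:**
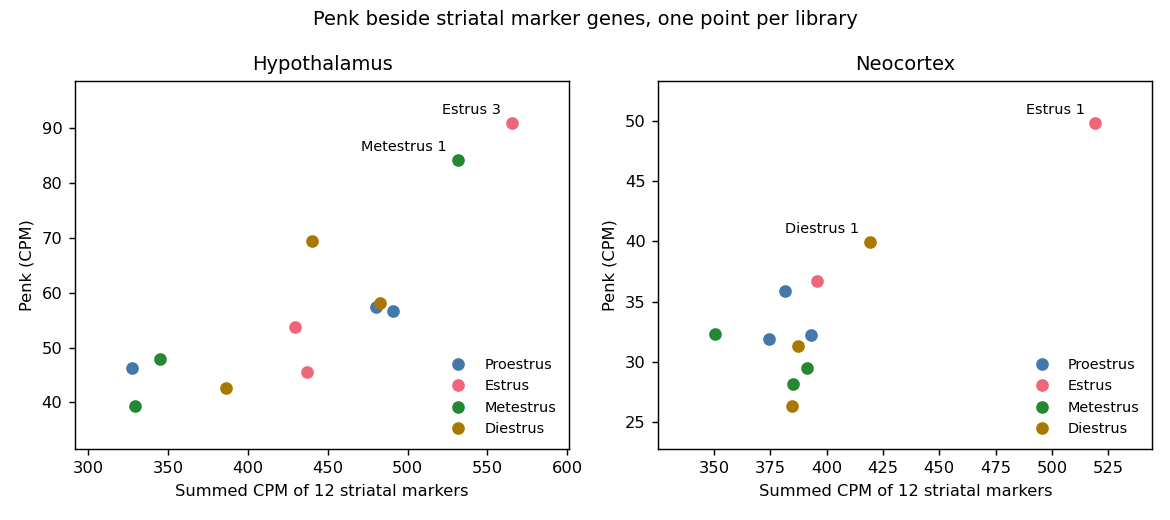
Penk in each library (vertical axis, counts per 1000000 counts) against the summed level of 12 striatal marker genes in the same library (horizontal axis, same unit), for the hypothalamus and the neocortex. The labelled libraries, hypothalamus Estrus 3 and Metestrus 1 and neocortex Estrus 1, have the highest values on both axes, and neocortex Diestrus 1 the second highest Penk.

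How closely the stages agreed could be bounded for each gene. Of the 150 pairwise stage differences, 125 had a 95% interval by limma voom that lay wholly within 2-fold. The tightest were Oprl1 in the hypothalamus and Penk in the cerebellum, where no interval over the 6 pairs of stages went past 0.25 on the log2 scale (1.19-fold), then Oprd1 and Oprl1 in the neocortex (0.30) and Pdyn in the neocortex (0.38). Hypothalamic Pdyn was bounded at 0.51 and Oprk1 at 0.57. The widest were Oprk1 in the hippocampus (2.07) and Pnoc in the cerebellum (2.04), where counts were low. As for the spread between all libraries of a region, the coefficient of variation was 4.83% for Penk in the cerebellum, 6.50% for Oprd1 and 6.64% for Pdyn in the neocortex, and 28.1% for Penk and 35.4% for Oprd1 in the hypothalamus.

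Whether stage differences depended on the region was tested by the interaction of stage and region over all 47 libraries. For the opioid genes 0 of 7 were called by edgeR (unadjusted p from 0.248 to 0.570, adjusted p = 1), as were 0% of all 18152 genes, with 1.52% at an unadjusted p under 0.05.

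The other genes on which opioid signalling relies were read from the same fits. Of 8 genes that process precursors, 2 were called higher in the hypothalamus than in the hippocampus, Pcsk1, a prohormone convertase (39.4 against 12.9 CPM, log2 difference 1.58), and Pam, which amidates peptides (321.7 against 142.9 CPM, 1.14), beside 7.22% of all genes. Against the neocortex 1 was called, Pcsk2, another convertase, lower in the hypothalamus (178 against 409 CPM, log2 difference -1.32), beside 6.89% of all genes. Against the cerebellum 3 of 8 were called higher in the hypothalamus, 3 of 8 higher in the hippocampus and 4 of 8 higher in the neocortex, where the neocortex list was Pcsk1, Pcsk2, Cpe and Pam, and 0 were called higher in the cerebellum. Over all genes the shares called higher were 13.4%, 14.2% and 10.2% in these pairs, and with 8 genes a count of 1 or 2 lies near such shares. The cerebellum, where Penk was highest, held 48.2 CPM of Pam, called lower than in each other region, and 105 CPM of Pcsk2, called lower than in the hippocampus and the neocortex. The carboxypeptidase Cpe was the most abundant of the list, with means from 735 CPM in the cerebellum to 1730 CPM in the hippocampus.

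Of 8 peptidases that break opioid peptides down, 1 was called higher in the hypothalamus than in the hippocampus, beside 7.22% of all genes, and 2 higher than in the neocortex, beside 10.8%, counts near those shares. Ece2, an endothelin-converting enzyme, was 103 CPM in the hypothalamus, 25.7 CPM in the hippocampus, 55.5 CPM in the cerebellum and 14.5 CPM in the neocortex. Mme, the enkephalin-cleaving neprilysin, was 5.08 CPM in the hypothalamus and 0.939 CPM in the cerebellum. Of 5 inhibitory G protein subunits 0 were called between the forebrain regions, beside 9.27% to 17.7% of all genes. Gnaz alone was called, lower in the cerebellum (40.5 CPM) than in each other region (89.9 to 101.8 CPM). Over all genes, 10.2% to 14.2% were called lower in the cerebellum, and with 5 genes counts of 0 or 1 lie near such shares.

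Among 9 effectors 1 was called higher and 3 lower in the hypothalamus than in the hippocampus, beside 7.22% and 8.83% of all genes, and likewise 1 higher and 3 lower than in the neocortex, beside 10.8% and 6.89%. The higher one in both was Kcnj5, an inwardly rectifying potassium channel subunit, at 15.2 CPM in the hypothalamus and at most 0.567 CPM on average elsewhere, where it was near 0. Within each other region 8 of the 9 effectors passed the low-count filter, and this difference of Kcnj5 is a description with no test. The calcium-stimulated adenylyl cyclase Adcy1 went the other way, with 70.6 CPM in the hypothalamus against 1429.5 CPM in the hippocampus, 1567 CPM in the neocortex and 2569 CPM in the cerebellum. Among 10 genes of receptor desensitization, Rgs9 was called higher in the hypothalamus (57.0 CPM) than in each other region (3.57 to 13.0 CPM). Rgs9 is also among the striatal markers above, and the part of striatal tissue in its level was not tested. Rgs14 was called higher in the hippocampus (65.1 CPM) than in the hypothalamus (6.56 CPM) and the neocortex (22.0 CPM). Rgs4 was called higher in the neocortex (480.1 CPM) than in each other region. The median log2 difference of the hypothalamus from hippocampus, neocortex and cerebellum was 0.30, 0.03 and 0.73 for the processing genes, 0.78, 0.63 and 0.11 for the peptidases, -0.30, -0.43 and -0.04 for the effectors and -0.13, -0.53 and 0.34 for desensitization, beside medians near 0 for all genes. In the stage tests 0 members of these lists were called in any region.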

How the data were processed

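RNA-seq of 47 libraries was analysed from raw counts per gene, deposited by the authors for 37315 Ensembl genes in each region without normalization. The submitters' processing notes name Cufflinks 2.1.1, DESeq 1.12.1, SAMtools, TopHat2 2.0.8 and Trimmomatic 0.32, with GRCm38 (mm10). The program that counted reads, its annotation and its strand setting were not given in the sources used here. Symbols, lengths and transcripts came from GENCODE M21, which held 35533 of the genes, and the other 1782 kept their identifiers. One more neocortex estrus library was not analysed here.

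Quasi-likelihood models of edgeR 4.0.16 (R 4.3.3) with TMM factors were fitted by stage within regions, and by region and stage over all libraries, to genes that passed filterByExpr (minimum count 10, minimum total 15). Stage had 3 degrees of freedom, the interaction 9, and regions were tested with glmTreat against a log2 fold of 1. Each test was adjusted over its genes by the Benjamini-Hochberg method, at a threshold of 0.05. The 95% intervals came from limma 3.58.1 voom. DESeq2 1.42.0, RLE factors, other filters, age, a replicate block and leaving out libraries were alternatives, and 3 of them (2 sets of libraries left out of the region fit, and another gene length) were chosen after seeing the data. Floors of 3 counts cover counting error only, because reads were not tagged with molecular identifiers. The procedure was tested on simulated data. Of 46 pairs of replicates, 0 were identical.

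The members and lists were chosen with earlier results of these data known. The genes named are the 7 members, Pomc, the 3 genes most like each member (log2 CPM with a prior count of 2, mean CPM of at least 1), up to 5 of the most abundant genes of each list and any called. Lars2 and Ipcef1 were named after their values were seen. Replicate numbers were not taken as a pairing, after the check given in the closing section, and samples were treated as unpaired.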

Additional observations from a re-analysis of the deposited data

How the results depend on the processing

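Over 225 alternative values of the counts of opioid genes called, 219 stayed within 1.5 times the reported count and 6 moved. The counts by stage and of the interaction were reported as 0 where 0 of all genes were called, so their staying at 0 says little. With no filter on low counts, the neocortex gave 1 opioid gene in the stage test and 2 pairwise differences, all of Penk. For hippocampus against neocortex the count was 4 in a test against no difference, 0 by DESeq2, 0 by limma voom with treat, and from 0 to 1 with 1 replicate of every group left out. Of 462 alternative values of single regional differences, 0 reversed direction and 15 changed a call. The 7 that lost a call were those of Oprd1, Oprk1 and Pnoc given above. The cause of these changes was not tested, except that the test against no difference asks for less. The levels per length of 15 of 28 gene and region combinations moved with the length of the longest transcript.

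With the replicate number as a block, 0 opioid genes were called by stage in every region, region counts were as reported, and over all genes the hypothalamus gave 1 call in the stage test and 2 in the pairwise tests. Among same-numbered libraries of one region, the deviations from the group means correlated above 0.1 in 11 of 69 pairs (range -0.43 to 0.47). Both ends of this range were in the hippocampus. Libraries of the same stage and number in different regions had a correlation above 0.1 in 10 of 69 pairs (range -0.14 to 0.19). They came from mice of the same age, and neither settles whether they share an animal. The numbers were therefore not taken as a pairing.

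Counts over all genes in the stage test, 0 in each region as reported, were 115, 0, 169 and 81 with no filter (hypothalamus, hippocampus, neocortex, cerebellum), 0, 3, 1 and 0 by DESeq2, and at most 5 with 1 library left out. Pairwise counts were 221, 0, 497 and 165 with no filter, 0, 3, 45 and 0 by DESeq2 and 1, 7, 0 and 0 by limma voom with sample weights. The interaction gave 9 genes with no filter. Regional counts against no difference ran from 11621 to 13803, in place of 1683 to 3725, and hippocampus against neocortex gave 2673 with no filter. Depth limits the cerebellar values of Pdyn, Oprk1 and Oprd1 and the hypothalamic values of Estrus 3.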

Other observations

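Pomc, the precursor of beta-endorphin, was 29.0 to 95.8 CPM in the hypothalamus (median 55.9, mean 57.0 ± 18.7 CPM, SD, n = 12) and averaged 1.38 CPM in the hippocampus, 1.07 CPM in the neocortex and 1.32 CPM in the cerebellum. Its hypothalamic level was 41.3-fold above the hippocampus and 47.1-fold above the neocortex, both called by edgeR's glmTreat. Pomc is also made in the pituitary. Of 4 pituitary markers, 3 (Prl, Gh and Cga) were called higher in the hypothalamus than in each other region. Over all genes, 7.22%, 10.8% and 13.4% were called higher there than in hippocampus, neocortex and cerebellum. Within those regions 1, 1 and 0 of the 4 markers passed the low-count filter, so most of these differences are a description with no test. The summed level of all 4 was 1.39 to 56.9 CPM in the hypothalamus (median 4.56), with the highest in Metestrus 3, which also had the most Pomc (95.8 CPM), and the part of pituitary tissue was not tested. Per length its hypothalamic level of 43.3 RPKM was above the 35.3 RPKM of Penk.

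The genes whose regional profile was most like that of each opioid gene were read from Pearson's r over the 16 means by region and stage, among 16312 genes, as a description without a test. For Pdyn they were Nrarp (r = 0.993), Tox3 (0.992) and Drc1 (0.991), and for Penk they were Ptprm (0.979), the antisense gene A830012C17Rik (0.971) and Cdh22 (0.969). Pnoc was followed by Ccdc57 (0.979), Cacna1b (0.977) and Bend4 (0.977), and Oprl1 by Tspyl3 (0.991), Rhbdd2 (0.991) and Dnah1 (0.990). Oprm1 was followed by Lonrf2 (0.991), Agrp (0.990) and Hmcn2 (0.990), Oprk1 by Impact (0.981), Mir770 (0.978) and Pcdh18 (0.977), and Oprd1 by Dmtn (0.993), Il34 (0.991) and Hdac9 (0.991). Within the region where each gene was highest, the closest genes over libraries, after removing the stage means, were Slc6a7 for Pdyn (r = 0.975, 12 hypothalamus libraries), Atp6v0b for Penk (0.952, 12 cerebellum libraries) and Dnajc3 for Oprd1 (0.943, 11 neocortex libraries). In the 12 hypothalamus libraries they were Pkd1 for Pnoc (0.991), Xcr1 for Oprm1 (0.977), Cep170 for Oprk1 (0.990) and Ttc8 for Oprl1 (0.993), correlations to which the library Estrus 3, lowest for 60.7% of genes, contributes.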
